A study of Mus musculus with 6 samples.

Results

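Adrenomedullin and apelin signalling was followed through 6 genes, taken from the deposited tables by their gene names: the ligands Apln and Adm, the receptors Aplnr and Calcrl, and the receptor partners Ramp2 and Ramp3. They are 6 of 24457 genes on chromosomes, and all 6 are among the 11717 genes that passed the filter on low values (an FPKM of 1 reached by 2 or more libraries) and were tested. Thymic endothelial cells (ECs) of wildtype female C57BL/6 mice, 4 to 6 weeks old per the labels, had been sorted as CD31+CD45-EpCAM- cells and divided by Ly6C and P-selectin (Selp). By these 2 markers the subsets are Ly6C+Selp- (type I), Ly6C+Selp+ (type II) and Ly6C-Selp+ (type III), 3 subsets of 2 libraries each, and types II and III are called the Selp+ subsets. The labels name no treatment. The study compared the subsets to characterise the type III ECs, which it places at the perivascular spaces where progenitors enter the thymus. The labels do not say whether the libraries of a subset came from separate mice, so p-values measure the spread between these libraries, which may be technical.

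Apelin is a small secreted peptide that acts on a single G protein-coupled receptor, encoded by Aplnr. Apln is a gene of sprouting endothelial tip cells, and Aplnr is found on veins and capillaries. Adrenomedullin, encoded by Adm, is a vasodilator peptide that also tightens the endothelial barrier. Its receptor Calcrl reaches the cell surface only with a receptor activity-modifying protein: with Ramp2 or Ramp3 it binds adrenomedullin, whereas with Ramp1 it binds the related peptide CGRP.

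Apln, Aplnr and Ramp3 were lower in type III than in type I ECs by 9.33, 4.06 and 9.18 times on mean FPKM, and all 3 passed the test. Ramp3 was low in type II ECs too, although its fall there was a weaker call (limma adjusted p = 0.046). The levels of Apln and Aplnr in type II ECs lay between those of the other subsets. Calcrl went the other way, to 2.71 times its type I level, but did not pass unless the replicate number was a block or the libraries were rescaled. The study's own list of genes differing between type I and type III ECs, called with Cuffdiff, holds Apln, Aplnr and Calcrl. It does not hold Ramp3, Adm or Ramp2. The FPKM printed with that list differ from the deposited values used here. Ramp2 was the most abundant of the 6 genes in every library and did not pass in any comparison, and Adm was low and uncertain.

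Expression was measured as FPKM, fragments scaled by transcript length and library size, so levels can be set side by side between genes. The depth was low, with between 1452476 and 2423171 fragments per library as read back from the deposited 95% intervals, and 3 fragments corresponded to a median FPKM of 0.32 to 0.55. The sort genes followed the labels. Selp was at 5.20 to 7.87 in type I ECs, 313 to 416 in type II ECs and 526 to 657 in type III ECs, and Ly6c1 at 692 to 1010, 351 to 522 and 59.7 to 99.6. The 8 blood endothelial markers summed to an FPKM of 1844 to 2542 in the 6 libraries, and Pecam1, which encodes CD31, was between 496 and 867. Markers of other cells were present too. In each of the following lists the range is that of the summed FPKM in the type I, the type II and the type III libraries. The 10 pericyte and smooth muscle markers summed to 271 to 630, 476 to 625 and 184 to 264. The 9 thymocyte and leukocyte markers summed to 26.4 to 99.8, 44.0 to 67.5 and 79.3 to 174, and the 5 fibroblast markers to 99.0 to 165, 170 to 304 and 112 to 114. The 6 thymic epithelial markers summed to 18.0 to 46.5, 17.7 to 23.3 and 12.3 to 46.0. The 5 lymphatic endothelial markers summed to 18.7 to 24.0, 9.85 to 12.4 and 13.5 to 31.4, with Lyve1 at 0 in both type I libraries. Between type I and type III ECs, 4 of the 10 pericyte and smooth muscle markers fell (Pdgfrb, Kcnj8, Abcc9 and Notch3), Tagln rose, and 1 of the 8 blood endothelial markers, Cldn5, fell. None of the tested fibroblast, leukocyte, epithelial and lymphatic markers passed in that comparison without the block. With the replicate number as a block, 1 leukocyte marker rose and 1 epithelial marker fell, and of the lymphatic markers 1 rose and 1 fell. In bulk RNA, fewer cells of a type and less RNA per cell cannot be told apart.

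The sequences just upstream of Apln, Adm and Ramp3 are shown because these genes had their highest mean in type I and their lowest in type III ECs. In the RefSeq table used here, 4 of the 6 genes were matched (Apln, Adm, Calcrl and Ramp3). Those below run from 250 to 13 bases before the RefSeq start, 238 bases each, and match the mm9 genome at 1 place each, given as mm9 coordinates. That of Calcrl is not shown because 145 bases of its window lie inside the gene as GENCODE draws it. Capitals mark matches, on either strand, to 6 motifs: the hypoxia response core ACGTG, the cAMP response half-site TGACG, the forkhead motif GTAAACA, the ETS motif AGGAAG, the RBPJ motif TGGGAA and the KLF motif CACCC.
Apln, chrX:45388043-45388280, minus strand: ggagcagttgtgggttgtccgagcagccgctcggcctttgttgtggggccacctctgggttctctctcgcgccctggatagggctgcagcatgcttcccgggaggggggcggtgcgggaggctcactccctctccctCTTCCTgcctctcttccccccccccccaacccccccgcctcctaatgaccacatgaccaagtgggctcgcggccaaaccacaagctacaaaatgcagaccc
Adm, chr7:117770921-117771158, plus strand: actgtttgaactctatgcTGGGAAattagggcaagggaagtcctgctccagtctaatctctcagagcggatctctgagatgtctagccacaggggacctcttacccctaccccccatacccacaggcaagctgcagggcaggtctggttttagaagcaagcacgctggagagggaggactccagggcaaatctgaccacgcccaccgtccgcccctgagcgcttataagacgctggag
Ramp3, chr11:6558286-6558523, plus strand: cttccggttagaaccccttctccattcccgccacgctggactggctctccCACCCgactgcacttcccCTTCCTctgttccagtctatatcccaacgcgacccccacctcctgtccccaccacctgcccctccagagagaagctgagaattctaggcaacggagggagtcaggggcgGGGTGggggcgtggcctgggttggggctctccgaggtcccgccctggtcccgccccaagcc
Apln and Ramp3 each held 1 ETS motif, 113 and 182 bases before the start, and Ramp3 held 2 KLF motifs. Adm held 1 RBPJ motif, 232 bases before its start. These letters are common: of 32851 RefSeq upstream windows of this length, 28.1% held the ETS motif, 20.6% the RBPJ motif and 50.3% the KLF motif. None of the 3 windows held the hypoxia core, the cAMP half-site or the forkhead motif, which 15.8%, 16.7% and 3.03% of all windows held. The windows of Apln, Adm and Ramp3 had a GC content of 65.5%, 56.7% and 66.0%, against a median of 52.1%. A match is a string of letters and not a measured binding site.

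Apln, on the minus strand of chromosome X of mm9 from 45378323 to 45388029, is a coding gene of 3 exons. It had an FPKM of 15.7 and 16.4 in replicates 1 and 2 of type I ECs, 7.99 and 9.94 in type II ECs, and 1.51 and 1.93 in type III ECs. The 3 subsets did not overlap, and the order was the same within replicate 1 and within replicate 2. The means were 16.1 ± 0.55, 8.97 ± 1.38 and 1.72 ± 0.30 (SD, n = 2). An estimated 145 and 186 fragments lay behind the type I values and 10 and 22 behind the type III values, so that counting error alone allows a ratio between 6.30 and 13.5 (exact binomial 95% interval). On the log2(FPKM + 1) scale, which understates changes of low genes, Apln fell by 2.65 between type I and type III ECs, with a standard error of 0.29 and a limma adjusted p of 0.0014. Type II ECs stood at 29.5% of that distance.

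Aplnr, a gene with a single exon on the plus strand of chromosome 2 from 84976517 to 84980080, followed the ligand at a higher level. Its FPKM was 127 and 102 in type I ECs, 77.0 and 66.3 in type II ECs, and 26.3 and 29.9 in type III ECs. Again no subset overlapped another. The means were 114 ± 17.8, 71.6 ± 7.51 and 28.1 ± 2.54 (SD, n = 2), and between 194 and 1319 fragments lay behind each value, the most of the 6 genes in the type I libraries. Between type I and type III ECs, Aplnr fell by 1.98 on the log2 scale with a standard error of 0.24 and a limma adjusted p of 0.0022, and type II ECs stood at 33.4% of the distance.

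Ramp3, on the plus strand of chromosome 11 from 6558536 to 6577478, had another course. Its FPKM was 20.04 and 13.5 in type I ECs, then 2.50 and 2.38 in type II ECs and 2.64 and 1.01 in type III ECs. Both Selp+ subsets were low and overlapped each other, and the type I libraries were above all 4 of the others. The means were 16.8 ± 4.59, 2.44 ± 0.08 and 1.83 ± 1.15 (SD, n = 2). An estimated 59 and 51 fragments stood against 5 and 8 in type II ECs and 5 and 3 in type III ECs, so the low values are close to the limit of the depth, and 3 fragments correspond to an FPKM of 0.79 to 1.68 for this gene. The ratio of type I to type III ECs was 9.93 over the pooled fragments, with a counting interval of 4.87 to 23.6 (exact binomial, 95%). Against type I ECs, Ramp3 fell by 2.69 on the log2 scale in type III ECs (limma adjusted p = 0.0049) and by 2.35 in type II ECs (limma adjusted p = 0.046), each with a standard error of 0.38. The fall in type II ECs is the weaker call: it passed in 7 of 15 alternatives, with adjusted p-values of 0.0092 to 0.40 in limma. Leaving out either type I library or either type II library lost the call, with adjusted p-values in limma of 0.14 to 0.21, although in each of these fits it fell by at least 2.08.

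Adm, on the plus strand of chromosome 7 from 117771183 to 117773333, was low throughout. Its FPKM was 8.65 and 7.37 in type I ECs, 5.39 and 3.89 in type II ECs, and 1.90 and 4.82 in type III ECs. Both libraries of each Selp+ subset were below both type I libraries, whereas the Selp+ subsets overlapped. Between 5 and 33 fragments lay behind each value. The difference between type I and type III ECs was -1.13 on the log2 scale (standard error 0.39, 95% interval -2.01 to -0.24) and did not pass (limma adjusted p = 0.20). It was -0.63 without type III replicate 1 and -1.63 without type III replicate 2, and did not pass in either fit (limma adjusted p = 0.91 and 0.085).

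Calcrl, on the minus strand of chromosome 2 from 84170783 to 84265423, with 16 exons, ran against Apln, Aplnr, Adm and Ramp3. Its FPKM was 18.0 and 11.4 in type I ECs, 24.9 and 19.0 in type II ECs, and 51.8 and 27.6 in type III ECs. The subsets did not overlap, but replicate 1 was above replicate 2 in each of them, and the spread in type III ECs was wide. The means were 14.7 ± 4.63, 21.9 ± 4.15 and 39.7 ± 17.1 (SD, n = 2). With 199 to 518 fragments per library, counting error was small beside this spread. The difference between type III and type I ECs was 1.34 on the log2 scale, with a standard error of 0.36 and a limma adjusted p of 0.083. It was 1.48 for the replicate 1 libraries alone and 1.21 for those of replicate 2. It passed with the replicate number as a block (limma adjusted p = 0.0050), and also after quantile normalization or median centring between libraries (limma adjusted p = 0.033 and 0.027). Without type III replicate 1 it was 0.90, with a limma adjusted p of 0.52. Of the 5 lymphatic endothelial markers, 4 were tested and none passed without the block. With it Prox1 rose and Flt4 fell (limma adjusted p = 0.029 and 0.019). Prox1 was at 0.32 and 0.52 in type I ECs and 3.05 and 3.22 in type III ECs, and Lyve1 at 0 and 0 against 12.4 and 1.08. Flt4 was at 20.04 and 16.7 in type I ECs and 9.45 and 7.15 in type III ECs, and Pdpn, which encodes podoplanin, at 3.503 and 1.40 against 5.18 and 1.90. The study describes the sorted cells as lacking podoplanin and unlikely to hold lymphatic ECs. Its own list of genes differing between type I and type III ECs holds Lyve1, higher in type III ECs, and Flt4, lower there. That list does not hold Prox1 or Pdpn. The summed FPKM of the thymocyte and leukocyte markers was 99.8 and 26.4 in replicates 1 and 2 of type I ECs. This sum was 67.5 and 44.0 in type II ECs and 174 and 79.3 in type III ECs. Replicate 1 was thus the higher in each subset, as for Calcrl, but within replicate 1 the sum fell from type I to type II ECs. The part of the lymphatic and of the leukocyte markers in the result for Calcrl was not tested.

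Ramp2, on the plus strand of chromosome 11 from 101107648 to 101109564, stood at an FPKM of 202 and 203 in type I ECs, 171 and 178 in type II ECs, and 195 and 244 in type III ECs. This put it between percentiles 98.3 and 98.5 of the tested genes in all 3 subsets. The difference between type III and type I ECs was 0.11 on the log2 scale (95% interval -0.40 to 0.62, limma adjusted p = 0.91). The interval thus holds changes of either sign, and the sign turned with quantile normalization, where the difference was -0.11. Type II ECs were lowest, with both libraries below all 4 others, at a difference from type I ECs of -0.21 (95% interval -0.72 to 0.29, limma adjusted p = 0.97).

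**Figure D1:**
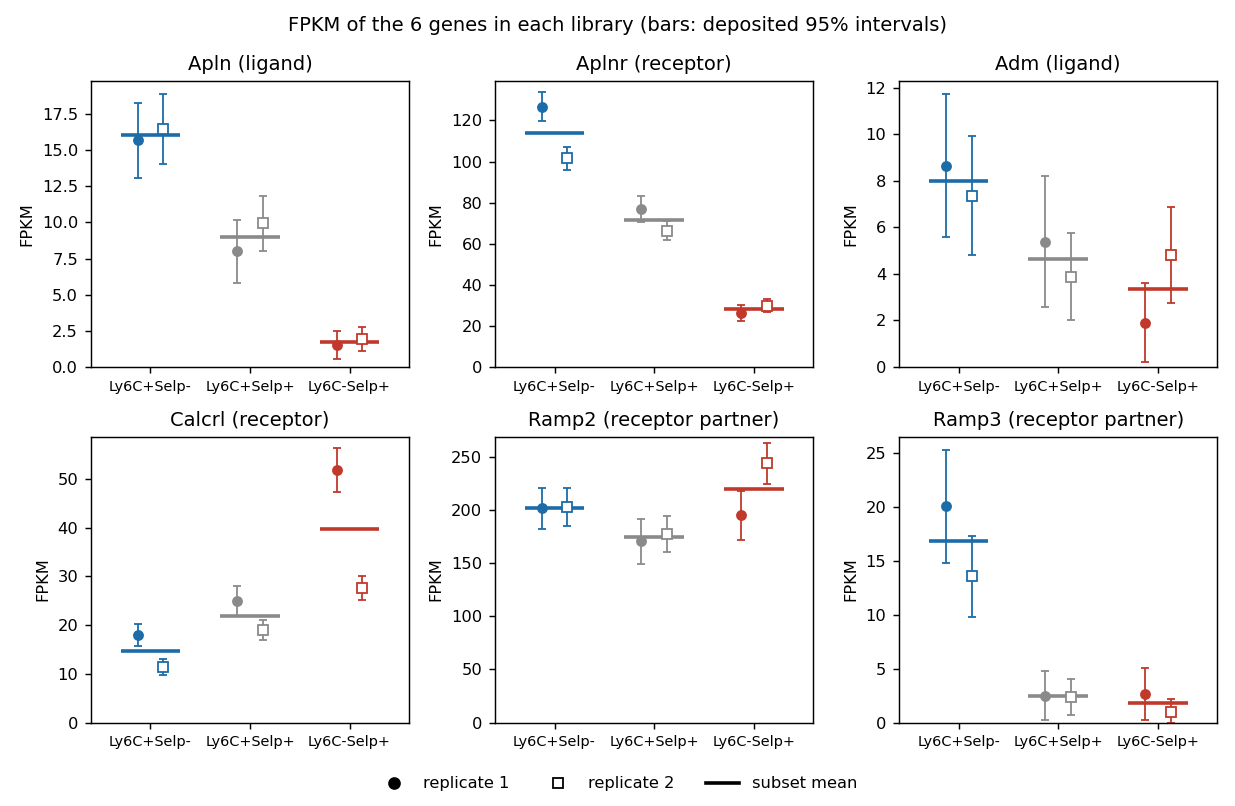
FPKM of the 6 genes (vertical axes, linear from 0) in each of the 6 libraries, by subset; filled circles are replicate 1, open squares replicate 2, horizontal lines subset means, and error bars the deposited 95% intervals, which hold no spread between replicates. Apln and Aplnr step down over the subsets, Ramp3 drops from 20.04 and 13.5 to at most 2.64 in the Selp+ subsets, Calcrl climbs to 51.8 and 27.6, and Ramp2 stays between 171 and 244.

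Between type I and type III ECs, 3 of the 6 genes fell and none rose by limma's adjusted p of 0.05, beside 4.14% of all tested genes called, 2.05% lower and 2.09% higher. That split depended on type I replicate 1: without it 126 genes were lower and 275 higher, against 240 and 245. The median log2 fold change of the 6 genes was -1.55, against 0.08 over all tested genes. The libraries did not overlap for 4 lower genes and for Calcrl, which was higher. This held for 37.9% of all genes, 17.1% lower and 20.7% higher. With the replicate number as a block, the same 3 genes fell and Calcrl rose, beside 8.29% of all genes, 3.89% lower and 4.40% higher.

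Between type I and type II ECs, Ramp3 was the only gene of the 6 to pass, beside 0.393% of all genes, 0.0683% lower and 0.324% higher. The block gave the same call, beside 1.56% of all genes, 0.717% lower and 0.845% higher. The libraries did not overlap for any of the 6 genes, of which 5 were lower and Calcrl was higher in type II ECs, beside 33.6% of all genes in either direction and 20.6% lower. Apln and Aplnr were at -0.78 and -0.66 on the log2 scale and did not pass (limma adjusted p = 0.54 and 0.52). Both comparisons share the type I libraries.

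Between type II and type III ECs, none of the 6 genes passed limma's adjusted p of 0.05, beside 0.222% of all tested genes, 0.128% lower and 0.0939% higher. Apln was at -1.87 (standard error 0.29, limma adjusted p = 0.0504) and Aplnr at -1.32 (standard error 0.24, limma adjusted p = 0.076). Both fell with the replicate number as a block (limma adjusted p = 0.010 and 0.020), where 1.95% of all genes were called, 0.896% lower and 1.06% higher. The libraries did not overlap for Apln and Aplnr, which were lower, and for Calcrl and Ramp2, which were higher, beside 41.0% of all genes, 13.3% lower and 27.7% higher. The median of all tested genes was 0.14 higher in type III than in type II ECs on the deposited scale. After quantile normalization, Apln was at -1.96 and Aplnr at -1.51, and both passed (limma adjusted p = 0.037 and 0.018). Most alternatives gave no call: Apln passed in 5 of 15 and Aplnr in 4 of 15. Both missed with no filter on low values (limma adjusted p = 0.21 and 0.39). They also missed without limma's trend (limma adjusted p = 0.085 and 0.17). With each library left out, Apln ranged from -2.01 to -1.73 and Aplnr from -1.42 to -1.21. Ramp3 differed by -0.34 between these subsets (95% interval -1.20 to 0.52, limma adjusted p = 0.83), and its within-replicate values, 0.06 and -0.75, had opposite signs. Adm too had opposite signs within replicates, -1.14 and 0.25. Calcrl was 0.77 higher, with a 95% interval of -0.04 to 1.58 and a limma adjusted p of 0.53.

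**Figure D2:**
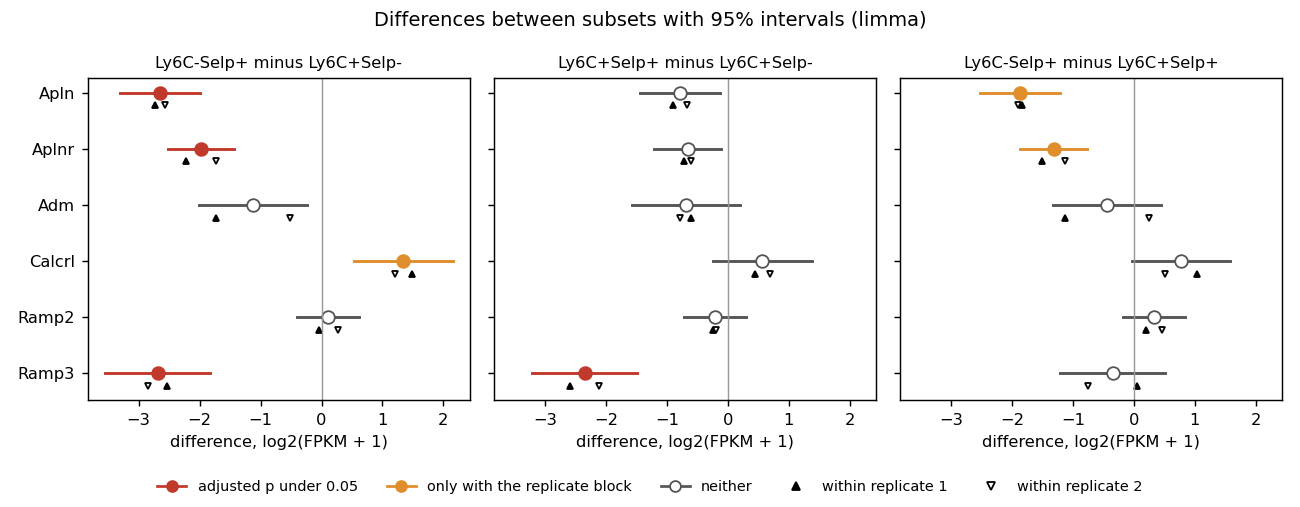
Differences between subsets on the log2(FPKM + 1) scale (horizontal axes) for the 6 genes in the 3 comparisons, with limma's 95% intervals; triangles below each point are the differences within replicate 1 and within replicate 2. Red points passed an adjusted p of 0.05 (3 genes in the left panel and Ramp3 in the middle one), orange points passed with the replicate block and not without it (Calcrl on the left, Apln and Aplnr on the right).

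Of the pericyte and smooth muscle markers, 4 of 10 fell and 1 rose in type III ECs, beside the falls of Apln, Aplnr and Ramp3. With the replicate block 5 fell, Rgs5 among them (limma adjusted p = 0.057 without the block and 0.0051 with it). In type II ECs their sum, 476 and 625, was within the range of the type I libraries, while Ramp3 was at 2.38 to 2.50. Within replicate 2, the sum was 271 in type I and 264 in type III ECs, but its members did not move together: Rgs5 went from 114 to 45.4 and Pdgfrb from 24.2 to 9.43, while Tagln went from 23.8 to 100.5. Kcnj8 was listed at 0 in type III replicate 1 and at 2.08 in type III replicate 2. The part of pericyte RNA in the falls of Apln, Aplnr and Ramp3 was not tested.

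The order of the genes by level changed between the subsets. In type I ECs it ran from Ramp2 (202) through Aplnr (114) to Ramp3 (16.8), Apln (16.1) and Calcrl (14.7), which did not differ beyond their spread, and Adm (8.01). In type II ECs the mean FPKM was 174 for Ramp2, 71.6 for Aplnr, 21.9 for Calcrl, 8.97 for Apln, 4.64 for Adm and 2.44 for Ramp3. In type III ECs Ramp2 (220) was followed by Calcrl (39.7) and Aplnr (28.1), whose order differed between the 2 libraries, then by Adm (3.36), Ramp3 (1.83) and Apln (1.72), which lay within each other's spread. Apln thus went from percentile 76.3 to percentile 15.9 of the tested genes, and Ramp3 from 77.4 to 17.1. Calcrl went from 74.4 to 90.2.

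Ratios of 2 genes within a library do not depend on how libraries are scaled, apart from the pseudocount, and were computed as a description. Ramp3 made up 9.03% and 6.25% of the summed FPKM of Ramp2 and Ramp3 in type I ECs, 1.44% and 1.32% in type II ECs, and 1.33% and 0.41% in type III ECs. The 4 Selp+ libraries thus had the lower share of Ramp3. On the scale of log2((FPKM + 1)/(FPKM + 1)), Aplnr to Calcrl went from 2.75 and 3.05 through 1.59 and 1.75 to -0.95 and 0.11. The 3 subsets did not overlap, and the mean difference between type III and type I ECs was -3.32. Adm to Calcrl, a ligand to its receptor, went from -0.97 and -0.57 through -2.02 and -2.03 to -4.19 and -2.30, again without overlap. Apln to Aplnr moved less, from -2.94 and -2.56 through -3.12 and -2.62 to -3.44 and -3.40. Here the type I and type II libraries overlapped and only the type III libraries stood apart. Calcrl to Ramp2 went from -3.42 and -4.04 through -2.73 and -3.16 to -1.89 and -3.10, and the Selp+ subsets overlapped.

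**Figure D3:**
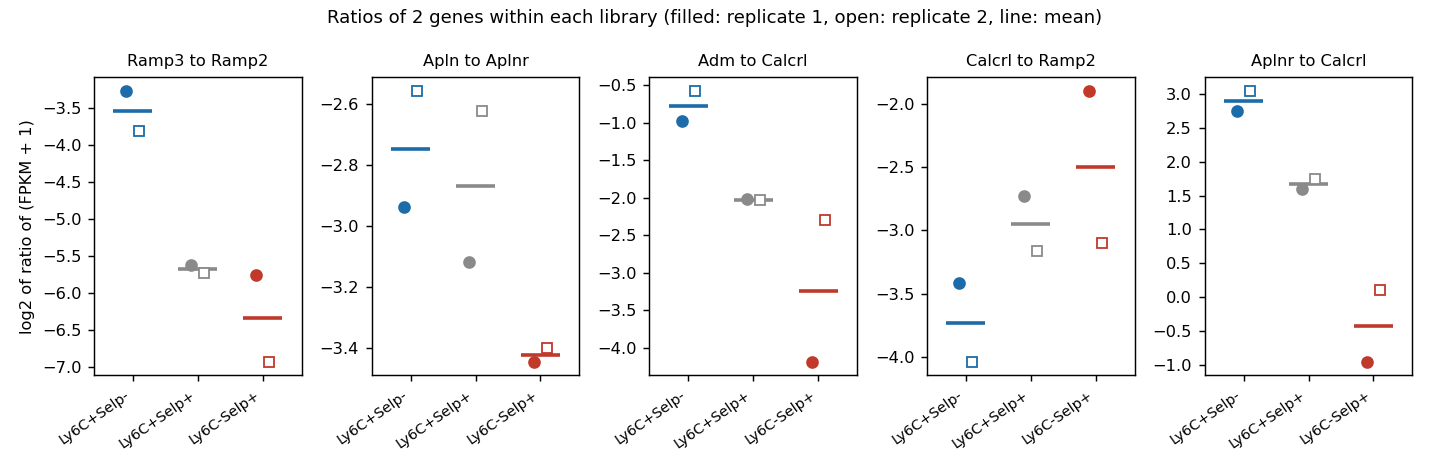
Ratios of 2 genes within each library, as log2 of the ratio of FPKM + 1 (vertical axes, each panel with its own range), by subset; filled circles are replicate 1, open squares replicate 2 and lines the means. Ramp3 to Ramp2 drops from a mean of -3.54 to -5.67 and -6.34, and Aplnr to Calcrl steps from 2.90 through 1.67 to -0.42.

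The remaining genes of the system were described from lists chosen with earlier results of these data known. Of all tested genes, 2.09% rose and 2.05% fell between type I and type III ECs, and 4.40% and 3.89% with the replicate block. The counts for the lists stand beside these shares. Of 5 other ligands of these receptor families (Adm2, Calca, Calcb, Iapp and Apela), none passed the filter. Iapp, which encodes amylin, was at 0.65 in 1 type I library and at 0 in the other 5 libraries, and Calcb, which encodes a form of CGRP, was at 0.59 in 1 type III library and at 0 elsewhere. Apela, the second apelin receptor ligand, was likewise above 0 in 1 library. None of these ligands was detectable above a few fragments at this depth. Of 6 names of other receptors and binding partners, 4 were tested, and 1 rose and none fell between type I and type III ECs. Gpr182, a receptor once proposed to bind adrenomedullin, rose from 16.9 to 45.6 (log2 fold change 1.38, standard error 0.25, limma adjusted p = 0.014). Ackr3, an atypical receptor that takes up CXCL12 and adrenomedullin, was at 34.1 and 27.0, then 14.7 and 9.35, then 37.1 and 40.1, so that the type II libraries were the lowest. It did not pass in any comparison without the block. With it, Ackr3 was lower in type II ECs than in both other subsets (limma adjusted p = 0.032 against type I and 0.015 against type III ECs). Ramp1, the CGRP partner of Calcrl, and Calcr, the calcitonin receptor, are named for their roles. Ramp1 was at 2.71 and 1.20 in type I ECs, 1.255 and 1.03 in type II ECs, and 4.17 and 3.97 in type III ECs. Its type III libraries stood above all others, and there it was above Ramp3, at 2.64 and 1.01. It did not pass in any comparison, with or without the block, on 37 fragments in total. Calcr was at most 0.08.

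Of 7 genes for the processing and breakdown of these peptides, 2 rose and none fell, and with the replicate block Furin, a protease that cleaves precursor proteins, fell as well (46.2 through 29.3 to 25.8, limma adjusted p = 0.11 without the block and 0.026 with it). Pam, whose enzyme amidates adrenomedullin at its end and so activates it, rose from a mean of 24.2 through 50.1 to 100.4, with no overlap between the subsets (log2 fold change between type I and type III ECs 2.04, standard error 0.26, limma adjusted p = 0.0029). Mme, which encodes the peptidase neprilysin, rose from 0.11 through 0.84 to 5.59 (log2 fold change 2.55, standard error 0.39, limma adjusted p = 0.0069). Among 26 transducers of cAMP and arrestin signals, 1 rose and 1 fell, and their median was 0.18 against 0.08 for all genes. Arrb1, which encodes beta-arrestin 1, rose from 12.0 through 37.4 to 59.0 (log2 fold change 2.21, limma adjusted p = 0.0018). Rapgef4, a cAMP-activated exchange factor for Rap, fell from 11.9 through 5.54 to 1.57 (log2 fold change -2.40, limma adjusted p = 0.0081). With the replicate block, 2 rose and 2 fell.

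Apln is known from tip cells, and 8 of 12 other tip cell genes fell with it between type I and type III ECs, while 1 rose. Their median log2 fold change was -1.50, against 0.08 over all tested genes, of which 2.05% fell and 2.09% rose. The largest falls were those of Esm1, which encodes the proteoglycan endocan (35.9 through 10.4 to 1.66), and Igfbp3, an IGF-binding protein (291 through 59.6 to 18.4). Unc5b, a netrin receptor, fell from 22.3 to 2.37, and Nid2, a basement membrane nidogen, from 35.6 to 6.87. Between type I and type II ECs, Igfbp3 was the 1 tip cell gene that fell (limma adjusted p = 0.014), beside 0.0683% of all tested genes. With the replicate block 6 fell, beside 0.717% of all tested genes. Angpt2, an antagonist of the receptor TEK and named after its value was seen, rose from 11.2 through 19.8 to 34.2 (log2 fold change 1.54, limma adjusted p = 0.012). Adm is a known target of the hypoxia-inducible factor HIF. Of 12 other HIF targets tested, 2 rose and none fell, beside the same shares of all tested genes. Slc2a1, a glucose transporter, rose from 14.4 through 41.0 to 64.4 (log2 fold change 2.08, limma adjusted p = 0.0030). Egln3, an oxygen-sensing prolyl hydroxylase, rose from 2.21 through 8.60 to 11.4 (log2 fold change 2.09, limma adjusted p = 0.031). With the replicate block 3 rose, P4ha1 being the third (10.5 through 12.4 to 18.9, limma adjusted p = 0.33 without the block and 0.049 with it). The median of the 12 was 0.69. Adm was at -1.13 and did not pass (limma adjusted p = 0.20). The part of HIF in these values was not tested. Furin and P4ha1 are named after their values were seen.

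**Figure D4:**
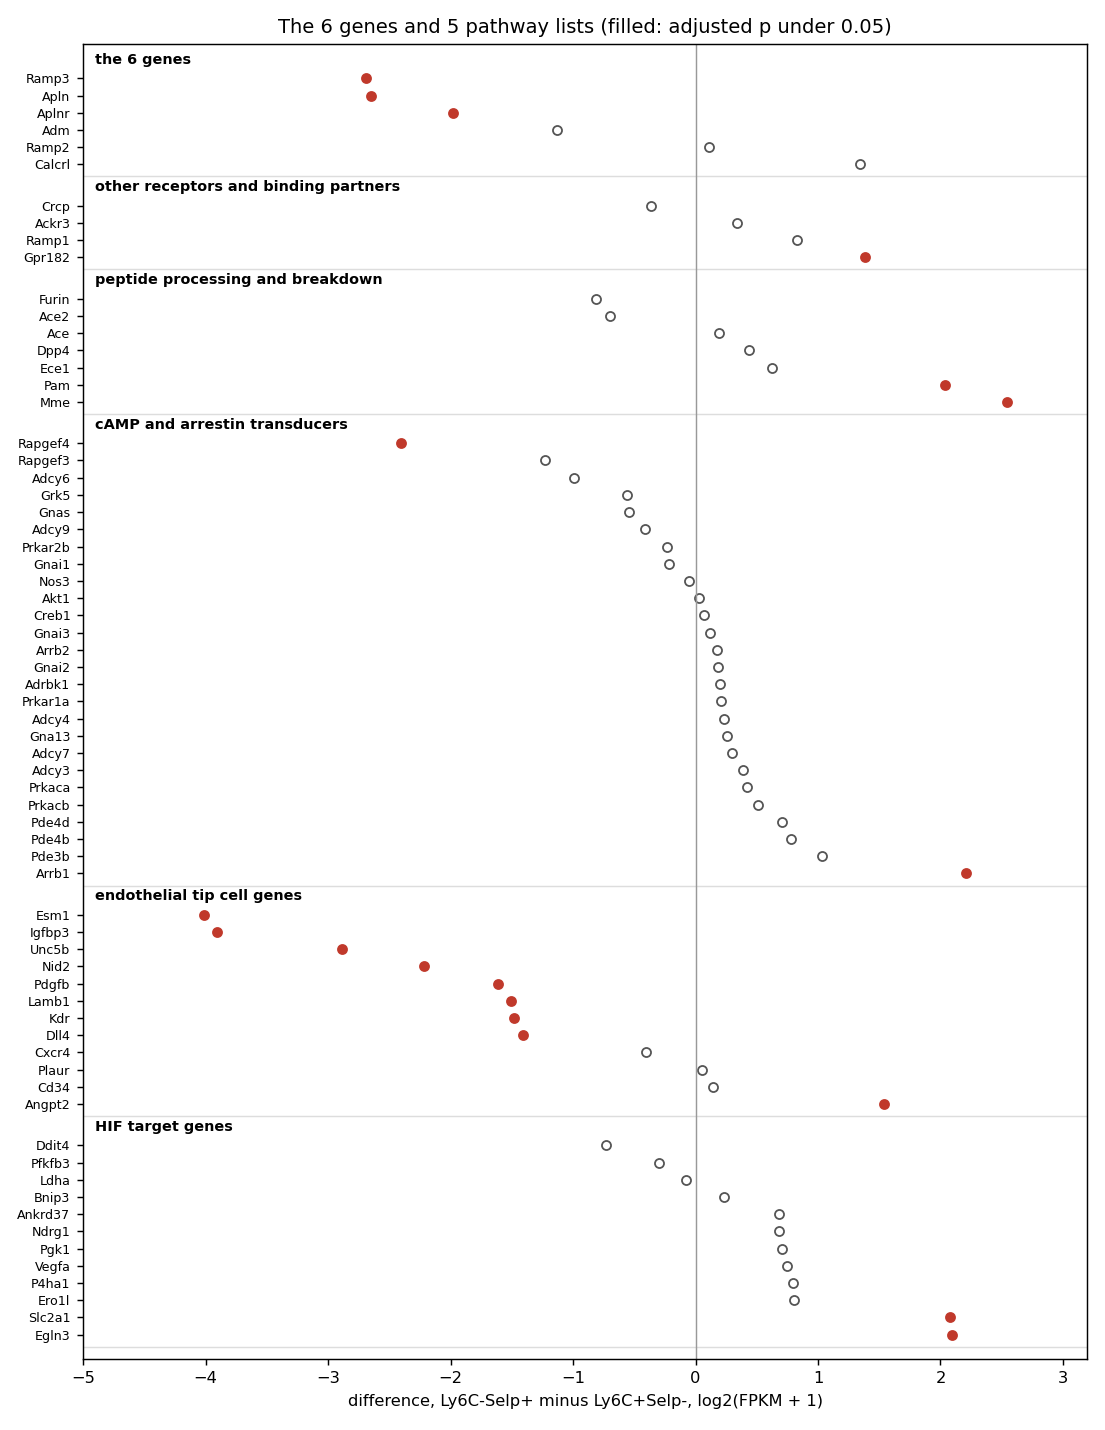
Differences between type III and type I ECs on the log2(FPKM + 1) scale (horizontal axis) for the 6 genes and the tested genes of 5 lists; each point is 1 gene and filled points passed limma's adjusted p of 0.05. Tip cell genes lie mostly to the left, from -4.01 for Esm1, while Pam, Mme and Arrb1 stand between 2.04 and 2.55.

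The genes with the pattern most like each of the 6 were sought among 4198 genes with a mean FPKM of at least 10, by Pearson's r of log2(FPKM + 1) over the 6 libraries. With so many candidates and 3 subsets of 2 libraries, high values are easily reached, and they are given as a description. Nearest to Apln were Nes (r = 0.992), which encodes nestin, Ablim3 (0.990) and Peak1 (0.987). Nearest to Aplnr were Uaca (0.997), the membrane chemokine gene Cx3cl1 (0.997) and the potassium channel gene Kcna5 (0.996). Ramp3 was followed most closely by Cdc42ep3 (0.997), the receptor kinase gene Grk5 (0.994) and Rftn1 (0.985). For Adm they were Snai1 (0.992), Hist3h2a (0.982) and Fam129b (0.979). For Calcrl they were H2-Q9 (0.995), whose reads may be shared with near-identical class I genes, Cp (0.992) and Etnk1 (0.988), and for Ramp2 they were Emc10 (0.979), Wwc2 (0.977) and Irx3 (0.974).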

How the data were processed

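RNA of sorted thymic EC subsets was sequenced by the authors, with 2 libraries per subset. Per the labels, the authors' processing used CASAVA 1.8, TopHat2 2.0.10 on mm9 and Cufflinks 2.1.1. The deposited tables give each library's FPKM with the bounds of a 95% interval, not scaled between libraries. The annotation is not given in the sources used here. The count of fragments behind a value was estimated from the interval as if it held counting error alone. It covers no other error.

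Values were analysed as log2(FPKM + 1). All 11717 genes reaching an FPKM of 1 in 2 or more libraries were fitted with limma 3.58.1 in R 4.3.3 (eBayes with a trend), 1 mean per subset over 6 libraries, with Benjamini-Hochberg adjustment over all genes tested in a comparison and a threshold of 0.05. Cuffdiff, which the study used, cannot be run on FPKM. Left out were 95 rows of added control and reporter sequences. Titles give both replicate numbers in each subset. Deviations of same-numbered libraries from their subset means correlated by 0.20, 0.31 and 0.18 over the tested genes for the 3 pairs of subsets. The number may thus mark a pairing. The main fit leaves it out, so calls given without mention of the block are unpaired. A fit with the number as a block is given where it changes a call of the 6 genes. It is also given where it changes the count of a pathway or marker list between type I and type III ECs.

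The genes, lists and motifs were chosen with earlier results of these data known. Named were all 6 genes. Of each pathway list, up to 4 genes past the threshold with the largest change were named and, where fewer than 2 passed, the 2 with the highest mean FPKM. Of the genes most like a member, 3 were named. A gene of the list of other receptors is not reported here, and the counts of that list leave it out. A permutation test planned for the ratios is not reported, because the pairs of genes were chosen with those results known. Gene positions come from the tables (mm9, counted from 1), and exons and strands come from GENCODE mouse release 1. Upstream sequences are RefSeq's (GRCm38.p6), matched letter for letter to mm9. Scripts ran in Python 3.11.15 with numpy 2.4.6, pandas 2.3.3 and scipy 1.17.1 and were tested on simulated data. Alternatives were other pseudocounts, filters and scalings, the block, limma without its trend, only the libraries compared, and each library left out.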

Additional observations from a re-analysis of the deposited data

Results flagged for a closer look

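The tables hold rows for reporter sequences that no comparison uses. The row named RGC-mRFP, in mice labelled wildtype, stood above the limit of 3 fragments in all 6 libraries. Its FPKM in the replicate 1 libraries was 18.2 in type I ECs, 23.7 in type II ECs and 28.3 in type III ECs. In the replicate 2 libraries it was 1.83, 5.31 and 3.23. The row thus separated the replicate numbers and not the subsets.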

How the results depend on the processing

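Apln passed between type I and type III ECs in all 15 alternatives, with a fall of 2.54 to 3.16 on the log2 scale. Aplnr passed in 14 of 15 and missed with no filter on low values (-1.98, limma adjusted p = 0.054). Ramp3 passed in 14 of 15 and missed with no filter (-2.69, limma adjusted p = 0.15). With each library left out, Apln ranged from -2.76 to -2.54, Aplnr from -2.14 to -1.82 and Ramp3 from -3.12 to -2.26. The fall of Ramp3 in type II ECs missed at a pseudocount of 0.1 (-2.71), at 0.5 (-2.53), with no filter (-2.35) and without limma's trend (-2.35), and ranged from -2.61 to -2.08 with each library left out. The sign turned for Adm between the Selp+ subsets without type III replicate 1 (0.0604, in a range of -0.95 to 0.0604 with each library left out), for Ramp3 in the same comparison without type III replicate 2 (0.0825, in a range of -0.77 to 0.0825), and for Ramp2 between type I and type III ECs after quantile normalization (-0.11) and without type III replicate 2 (-0.0506, in a range of -0.0506 to 0.27). The cause was not tested.

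The number of all genes called between type I and type III ECs, 485, went to 102 with no filter and 971 with the replicate block, and to 233 to 425 with each library left out (233 without type III replicate 1, 247 without type III replicate 2, 315 without type I replicate 2). Without type I replicate 1 the split went from 245 higher and 240 lower to 275 and 126. Between type I and type II ECs, 46 became 10 with no filter, 103 with quantile normalization, 103 with median centring, 183 with the block, 15 without the trend and 29 with only the libraries compared, and 12 to 46 with each library left out (12 without type II replicate 2, 19 without type I replicate 2). Quantile normalization and median centring changed the split from 38 higher and 8 lower to 73 and 30. Between the Selp+ subsets, 26 became 2, 90, 94, 229, 10 and 7 under the same alternatives, and 5 to 47 with each library left out (5 without type II replicate 1 or type III replicate 1, 7 without type III replicate 2, 47 and 42 without type I replicates 1 and 2). Here quantile normalization changed the split from 11 higher and 15 lower to 22 and 68. The block changed no call of the 6 genes other than those given in the report. The log2 ratio differences between type III and type I ECs went at a pseudocount of 0.1 from -2.80 to -3.35 for Ramp3 to Ramp2 and from -0.68 to -1.15 for Apln to Aplnr (-0.91 at 0.5). With each library left out they ranged from -3.39 to -2.21 for Ramp3 to Ramp2, -0.87 to -0.48 for Apln to Aplnr, -3.42 to -1.53 for Adm to Calcrl, 0.63 to 1.83 for Calcrl to Ramp2 and -3.85 to -2.79 for Aplnr to Calcrl. The ends of these ranges came from leaving out a type III library, except for Apln to Aplnr, where they came from leaving out a type I library. Depth limits Ramp3 in the Selp+ subsets (3 to 8 fragments) and Adm (5 to 33).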
